A study of Mus musculus with 2 samples.

Results

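Genes of periportal hepatocytes and of amino acid breakdown were read from a liver array comparison of parenteral nutrition (PN) with saline infusion in mice. The 6 genes are Cyp2f2, Cdh1, Hal, Uroc1, Gldc and Ass1, taken as every row of the deposited table whose platform annotation gives exactly 1 of these symbols. They fill 8 of 5082 rows, since Cyp2f2 and Cdh1 have 2 rows each, and make up 6 of the 1750 genes that carry a name. They were chosen by their measured differences between the pools, so the values below describe them and test nothing.

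Both groups were wild-type C57BL/6J mice, a common inbred strain, aged 6 to 10 weeks and kept on standard chow before surgery. All had a jugular catheter from day 1 and a saline infusion from day 2. From day 3 the saline group stayed on saline and could eat, whereas the PN group had nutrients infused into the vein and its food taken away, and liver was taken on day 11. Liver RNA of 3 mice per group was pooled and put on 1 array, so each value is that of a pool, the spread between mice is unknown, and there is no replicate check and no p-value. Infusate and food removal differed together and cannot be told apart. Levels are log2 values after RMA, a method that corrects background, normalizes arrays and summarises the probes of a gene, and the table holds only rows that differ by at least 1.5-fold. A gene without a value therefore differed by less, is unnamed here or was not measured. None of 15 hepatocyte markers such as Alb and Ttr had a named value, so the labelled tissue could not be checked on them.

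Blood enters the liver lobule at the portal vein and leaves at the central vein, and hepatocytes divide their work along this path. Periportal hepatocytes, which meet oxygen- and nutrient-rich blood first, carry much of gluconeogenesis, urea synthesis and amino acid breakdown, while pericentral hepatocytes carry glutamine synthesis, bile acid synthesis and much of drug oxidation under Wnt signalling. In histidine breakdown, histidase (Hal) forms urocanate, which urocanate hydratase (Uroc1) passes on toward glutamate. The glycine cleavage system, to which Gldc contributes the decarboxylase, splits glycine in mitochondria. Nitrogen released from amino acids ends in urea, and Ass1 joins citrulline to aspartate in that cycle.

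Of the 6 genes, 5 were lower in the PN pool and 1, Ass1, was higher. Over all named genes 49.8% were lower and 50.2% higher, but the members were picked for their differences and nothing is read from this contrast. By row, 7 of 8 were lower, beside 52.7% of all rows. The median difference of the 6 genes was -0.79 on the log2 scale. Over all named genes it was 0.59, at the edge of the gap the cutoff leaves around 0, and over the lower named genes -0.72. Centring on the median difference of all rows (-0.60) or of named genes (0.59) kept each member's direction but moved its value by about the size of the cutoff, down to -0.026 for Gldc. A single gene, Cyp2f2, differed by at least 2-fold, a size that 14.8% of the named genes reached.

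**Figure D1:**
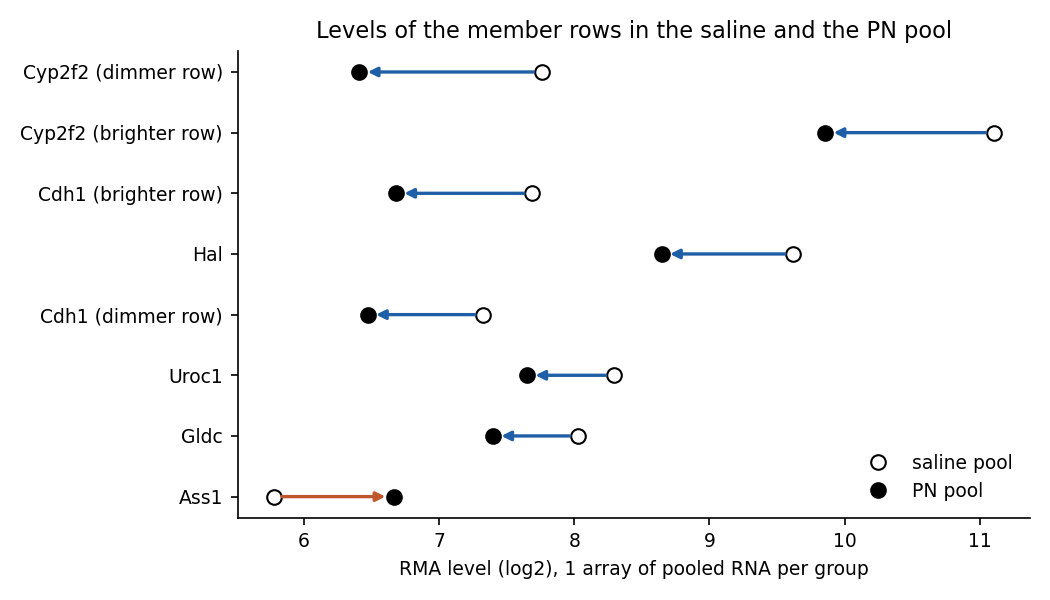
RMA level (log2, horizontal axis) of each of the 8 rows in the saline pool (open circle) and the PN pool (filled circle), with arrows from saline to PN. The PN level lies to the left of the saline level in 7 rows and to the right in Ass1 alone.

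The stretch before the transcription start is shown for the lower members to compare their sequence with that of Ass1, the member that was higher. RefSeq's promoter table held 5 of the 6 genes. Each run is the 250 bases upstream of the start, 5′ to 3′ on the gene's strand, and capitals mark the matches found by a search.
Cyp2f2 (GRCm38.p6 chr7:27119705-27119954, plus strand): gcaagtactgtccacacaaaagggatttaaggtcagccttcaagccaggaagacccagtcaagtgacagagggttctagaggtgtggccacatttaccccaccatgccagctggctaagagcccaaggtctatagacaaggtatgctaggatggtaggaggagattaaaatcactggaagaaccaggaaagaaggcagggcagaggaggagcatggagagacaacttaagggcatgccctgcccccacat
Hal (GRCm38.p6 chr10:93488518-93488767, plus strand): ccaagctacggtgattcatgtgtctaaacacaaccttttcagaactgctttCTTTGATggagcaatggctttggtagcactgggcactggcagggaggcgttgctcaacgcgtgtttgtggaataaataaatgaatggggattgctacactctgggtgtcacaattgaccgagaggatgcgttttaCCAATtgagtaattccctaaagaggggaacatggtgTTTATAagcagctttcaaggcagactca
Uroc1 (GRCm38.p6 chr6:90333039-90333288, plus strand): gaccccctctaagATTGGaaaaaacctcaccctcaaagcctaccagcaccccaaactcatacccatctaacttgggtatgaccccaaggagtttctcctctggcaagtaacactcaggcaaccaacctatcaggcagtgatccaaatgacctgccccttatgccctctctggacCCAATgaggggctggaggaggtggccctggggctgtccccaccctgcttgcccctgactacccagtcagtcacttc
Gldc (GRCm38.p6 chr19:30175442-30175691, minus strand): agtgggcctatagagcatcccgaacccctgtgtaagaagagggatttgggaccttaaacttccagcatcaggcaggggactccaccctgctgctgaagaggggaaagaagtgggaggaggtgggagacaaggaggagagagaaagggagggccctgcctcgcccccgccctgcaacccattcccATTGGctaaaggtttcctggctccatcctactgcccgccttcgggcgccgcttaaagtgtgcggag
Ass1 (GRCm38.p6 chr2:31470020-31470269, plus strand): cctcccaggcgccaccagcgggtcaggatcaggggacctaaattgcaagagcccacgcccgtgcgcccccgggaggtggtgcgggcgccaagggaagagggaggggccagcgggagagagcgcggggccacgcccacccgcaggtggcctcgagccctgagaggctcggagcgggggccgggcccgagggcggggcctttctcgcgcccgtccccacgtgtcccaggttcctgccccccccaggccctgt

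The promoters differed in base composition. Over the 250 bases Ass1 held 75.6% G and C and 23 CG pairs. Gldc held 59.6% and 8 CG pairs, and Hal 45.6% and 6. Uroc1 at 55.6% and Cyp2f2 at 51.6% had 0 CG pairs. The medians over 32851 promoters were 52.4% and 6 CG pairs, so the gene that was higher also had the most CG pairs of the 5, which is a description of single sequences. Both strands were searched for the TATA box as TATAAA, the CCAAT box by its name's letters, an HNF1 half-site as GTTAAT, the FOXA motif as TGTTTAC, the HNF4 motif as CAAAGTCCA, the CRE as TGACGTCA, the C/EBP motif as TTGCGCAA and the TCF motif as CTTTGAT. Hal had the TCF motif from base 199 to 193 before the start, the CCAAT box from 64 to 60, and the TATA box on the other strand from 28 to 23. Uroc1 had the CCAAT box from 76 to 72 and, on the other strand, from 237 to 233, and Gldc had it on the other strand from 66 to 62. None of these matches overlapped. The CCAAT box was in 33.8% of all promoters of this length, the TATA box in 12.4% and the TCF motif in 3.21%. The other 5 motifs had no match in the 5 windows, and were in 6.43% (HNF1 half-site), 3.17% (FOXA), 1.55% (CRE), 0.384% (HNF4) and 0.164% (C/EBP) of all promoters. Cyp2f2 and Ass1 matched none of the 8 motifs in these windows.

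Cyp2f2 encodes a cytochrome P450 that oxidises small aromatic compounds such as naphthalene, and is a classical marker of periportal hepatocytes. Its brighter row stood at 11.10 in saline and at 9.86 in PN livers, which differ by -1.25. The dimmer row went from 7.76 to 6.41, a difference of -1.35. PN levels were thus 42.2% and 39.3% of the saline levels on the linear scale, and the mean of the rows was 2.46-fold lower. By this mean Cyp2f2 ranked 46 of the 872 lower named genes, the foremost of the members.

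Cdh1 encodes E-cadherin, the calcium-dependent adhesion protein of epithelial junctions, which in liver marks periportal hepatocytes and bile duct cells. Its brighter row stood at 7.69 with saline and 6.68 with PN, or 2.01-fold lower. The other row stood at 7.33 and 6.47, or 1.81-fold lower. The mean of the rows differed by -0.93 and ranked 172 of 872. Of 28 genes of epithelial junctions, 1 other gene had a named value: Cldn5, a claudin best known from endothelium, was 1.64-fold higher, from 5.03 to 5.75.

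Because bile duct cells also make E-cadherin, their markers are given beside it. Of 16 cholangiocyte markers 3 had a value. Epcam, an epithelial adhesion protein, stood at 4.47 with saline and 3.61 with PN, Tspan8, a tetraspanin, 5.87 and 5.28, and Prom1, an apical membrane protein, 3.21 and 4.27. The saline level of Prom1 lay under 3.26, the median higher level of chemosensory receptor genes, taken here as background, and Tspan8 changed sign to 0.0095 when the median difference of all rows was subtracted. Summed on the linear scale the 3 markers came to 89.9 and 70.2, a sum over probe sets without a common scale that Tspan8, the brightest, dominates and that does not measure bile duct cells. The other 13 markers, Krt19, Krt7 and Sox9 among them, had no named value. Their part in the Cdh1 difference was not tested. In bulk liver RNA fewer cells of a type and less RNA per cell cannot be told apart.

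Cyp2f2 and Cdh1 were each represented by 2 rows. The rows of Cyp2f2 differed from each other by 0.10 in their difference and those of Cdh1 by 0.15, less than the differences themselves. More than 1 row was held by 22 genes. In 18 of them all rows had the same direction, with a median gap between the highest and lowest row of 0.12 and a largest gap of 0.66. The other 4 genes had rows of opposite direction, with gaps of 1.25 to 2.78. Rows that differed by less than 1.5-fold are missing, and all rows of a gene read the same pools, so the gaps say nothing of the spread between mice.

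**Figure D2:**
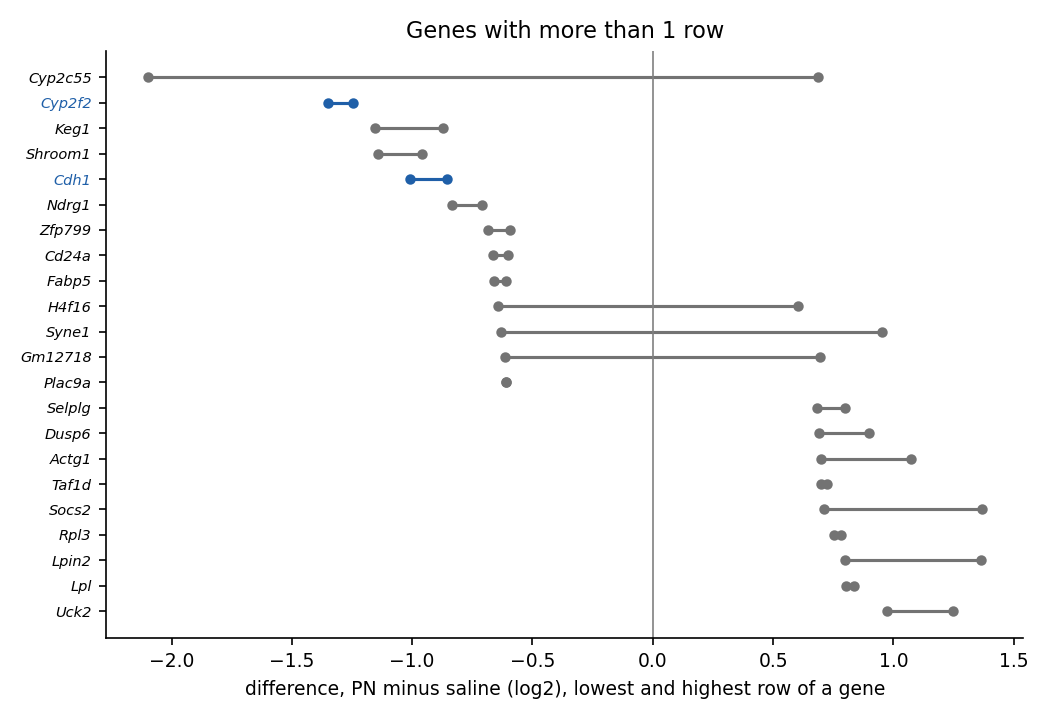
Lowest and highest difference (PN minus saline, log2, horizontal axis) among the rows of each of the 22 genes with more than 1 row, with Cyp2f2 and Cdh1 in blue. The rows of Cyp2f2 lie 0.10 apart and those of Cdh1 0.15 apart, while 4 genes have rows on both sides of 0.

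The rows of Cyp2f2, and those of Cdh1, were numbered among genes of opposite strands. Probe set numbers of the table follow strand: of 1279 rows with 1 symbol, a known gene strand and a majority among the 10 nearest-numbered named rows of the chromosome, 94.8% had that majority on the gene's own strand. The brighter Cyp2f2 row had 10 of 10 such neighbours on the plus strand, where the gene lies, and the dimmer row 10 of 10 on the minus strand. For Cdh1 the dimmer row had 10 of 10 neighbours on the plus strand and the brighter row 10 of 10 on the minus strand. The strand of Cdh1 was not available here, so which of its rows is numbered with the gene's strand is unknown. Whether the dimmer Cyp2f2 row, or a row of Cdh1, reads antisense RNA was not tested. Such a row may not repeat the reading of the gene. Cyp2c55, singled out after its values were seen, has rows numbered in the same way, and these differed by -2.10 and 0.68. Rows of Keg1 and Zfp799 were also numbered among opposite strands, but each gene's rows shared a direction. They differed by -1.15 and -0.87 (Keg1) and -0.69 and -0.595 (Zfp799). The rows of Dusp6 (0.69 and 0.90) are numbered far apart. The nearest numbers of its chromosome therefore do not place the later row on a strand. The single rows of Hal, Uroc1, Gldc and Ass1 had 8 to 10 of 10 neighbours on the strand of their gene.

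The genes of the first 2 steps of histidine breakdown were lower in the PN pool. Hal, whose product removes ammonia from histidine, went from 9.62 with saline to 8.65 with PN, 1.96-fold lower. Uroc1, the next enzyme, had 8.29 and 7.65, 1.56-fold lower. They ranked 147 and 647 of the 872 lower genes. Amdhd1 and Ftcd, which complete the route, had no named value. The fifth gene of this list, Hdc, makes histamine from histidine and is not a step of that route, and its row went the other way, from 4.36 to 5.42, or 2.08-fold higher.

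Gldc, the glycine decarboxylase of the cleavage system, went from 8.03 with saline to 7.40 with PN, 1.55-fold lower. Its difference lay 0.044 beyond the cutoff on the log2 scale and that of Uroc1 0.057, the nearest of the members, and smaller differences than the cutoff are not in the table. Sardh, which forms glycine from sarcosine in mitochondria, was 1.82-fold lower, from 8.23 to 7.37. These were the only genes with a named value among 23 of glycine and serine metabolism, and the partners of Gldc in the cleavage system, Amt, Gcsh and Dld, had none. A row shared by Gcat, a threonine-to-glycine enzyme, and Galr3 went from 7.47 to 6.74 and was not counted, since it names 2 genes.

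Ass1 was the exception among the members. Its row went from 5.78 with saline to 6.67 with PN, 1.85-fold higher, and ranked 222 of the 878 higher named genes. The other enzymes of the urea cycle, Cps1, Otc, Asl and Arg1, had no named value. Of 12 genes of the urea cycle and arginine metabolism 1 other had a value: Arg2, the mitochondrial arginase, which lies outside the hepatic cycle proper, was 1.59-fold lower, from 5.04 to 4.37. The direction of Ass1 is therefore that of 1 step and does not stand for the cycle.

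Among 56 further genes listed under amino acid breakdown 2 had a named value. Etnppl, also periportal, is a phospho-lyase of phosphoethanolamine, which is not an amino acid. It was 2.36-fold lower, from 8.72 to 7.48. Mccc1, a subunit of the leucine pathway carboxylase for methylcrotonyl-CoA, was 1.63-fold lower, from 7.61 to 6.90. A row shared by Acmsd, an enzyme of tryptophan breakdown, and a RIKEN gene went from 4.96 to 4.03 and was not counted. Over the 4 amino acid lists together, 9 of 96 genes had a value, with 7 lower and 2 higher and a median difference of -0.67. Among all named genes 49.8% were lower. The 9 include members picked for their differences, and the lists were written with earlier results known, so nothing is read from this contrast. Without the members, 4 of 5 were lower. Etnppl is among these 4, and the higher gene is Hdc, which is not a step of the histidine route. The other 87 genes had no named value.

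Of 25 hepatocyte amino acid transporters listed 2 had a value and both were higher in the PN pool, beside 50.2% of all named genes. This list too was written with earlier results known and leaves out other solute carriers, so the count tests nothing. Slc38a2, which carries small neutral amino acids into cells with sodium, was 2.09-fold higher, from 8.98 to 10.05. Slc7a8, an exchanger of neutral amino acids, was 1.75-fold higher, from 5.62 to 6.42.

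The periportal genes with a value did not share a direction. Of 30 periportal genes 9 had a value, 6 lower and 3 higher, with a median of -0.64, beside 49.8% lower among all named genes. The 6 members, picked for their differences, are among these 9. This count and median therefore test nothing and are not set against the pericentral ones. Of the 3 that are not members, Etnppl was lower, whereas G6pc, the last enzyme of glucose release, was 2.26-fold higher, from 9.22 to 10.40, and Apoa4, an apolipoprotein, 2.77-fold higher, from 9.14 to 10.61. Of 32 pericentral genes 6 had a value, 3 lower and 3 higher, with a median of -0.34. The drug-metabolizing genes Cyp2a5, Akr1c6 and Gstm3 were 3.81-fold, 3.44-fold and 2.51-fold lower. The bile acid synthesis gene Cyp7a1 was 2.41-fold higher, the xenobiotic receptor gene Ahr 1.62-fold and Lgr5, a receptor that amplifies Wnt signalling, 1.57-fold. Neither Glul nor Cyp2e1, standard pericentral markers, had a named value, and whether the zones differ was not tested.

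**Figure D3:**
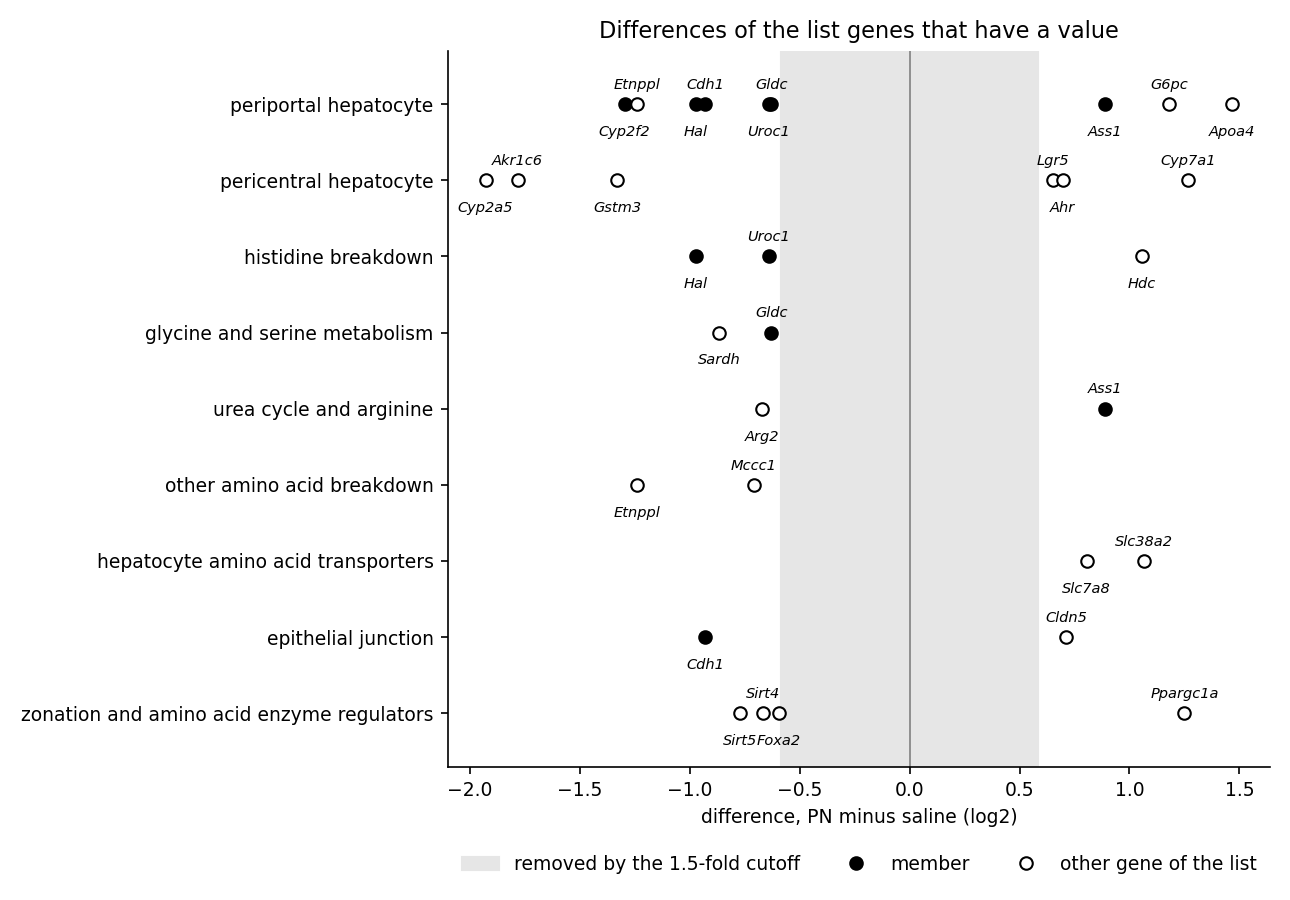
Difference (PN minus saline, log2, horizontal axis) of every gene with a value in 9 lists of related genes (vertical axis), with members as filled circles, other genes as open circles and the range removed by the 1.5-fold cutoff in grey. Periportal genes lie on both sides, with 6 lower and 3 higher, as do pericentral genes, with 3 lower and 3 higher.

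Of 28 genes that regulate zonation or amino acid enzymes 4 had a value. Sirt5 and Sirt4, which encode mitochondrial sirtuins that act on urea cycle and amino acid enzymes, were 1.71-fold and 1.59-fold lower, from 6.64 to 5.87 and from 5.34 to 4.68. Foxa2, a hepatocyte transcription factor, was 1.51-fold lower but changed sign to 0.0072 when the median difference of all rows was subtracted. Ppargc1a, a coactivator of gluconeogenesis, was 2.38-fold higher. Ctnnb1, Tcf7l2, Hnf4a, Gcgr and Klf15 were among the 24 without a named value.

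Cyp2f2 lies in a cluster of Cyp2 genes whose members went in both directions. RefSeq places 13 Cyp2 genes within 2000000 bases of it, and 7 of these, Cyp2f2 included, had a value, 3 lower and 4 higher. Over all named genes 49.8% were lower. In chromosome order Cyp2b10 differed by -2.75, Cyp2b13 by 1.58, Cyp2b9 by 3.23, Cyp2a4 by 0.70, Cyp2a5 by -1.93, Cyp2a22 by 0.66 and Cyp2f2 by -1.30. The saline level of Cyp2b13, 2.95, lay under the same background level of 3.26. Of 11 Cyp2 genes with a value anywhere, 6 were lower and 5 higher, with Cyp2c55 counted as lower by the mean of rows of opposite direction. Close paralogs can share probe target sequence, so the values of the neighbours are uncertain.

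**Figure D4:**
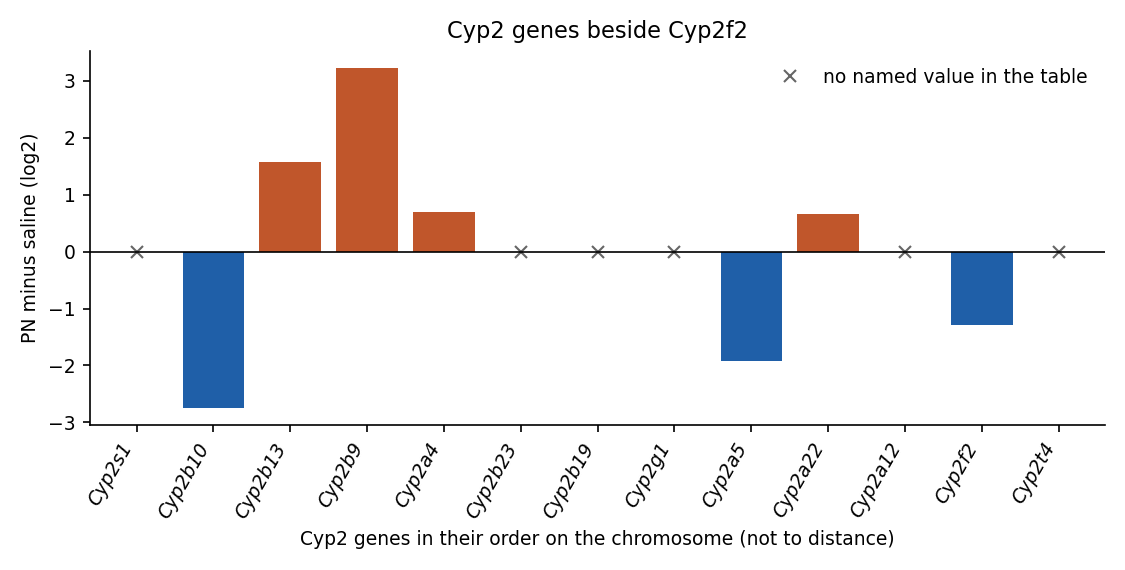
Difference (PN minus saline, log2, vertical axis) of the 13 Cyp2 genes around Cyp2f2, in chromosome order and not to distance, with crosses for genes without a named value. Lower genes (blue) and higher genes (orange) are interspersed, from -2.75 for Cyp2b10 to 3.23 for Cyp2b9.

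Markers of other cell types differed in the same comparison. Their lists were written with earlier results of these data known, so the counts test nothing. Over all named genes 50.2% were higher and 49.8% lower. Of 16 macrophage markers 10 had a value and were higher in the PN pool, by 0.62 to 2.36, and their summed linear level was 1402 with saline and 2419 with PN. Among 12 lymphocyte markers, 4 were in the table, all higher, with sums of 121 and 223. Among 12 exocrine pancreas markers, 3 were in the table, all lower, with sums of 90.2 and 48.3. Of 10 stellate cell markers Lum alone had a value, at 1.91-fold higher, and none of 12 endothelial markers had one. These sums share the limit given for the bile duct markers, and the part of these cells in the lower hepatocyte genes was not tested.

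Across the table the members sat among many genes of like difference. Of the named genes 647 were lower by at least as much as Uroc1. By distance between pairs of log2 levels, over 1279 candidate genes and the 2 arrays, the nearest gene was C6 for Cyp2f2 (0.080), Cd1d1 for Hal (0.078), Ypel2 for Cdh1 (0.020), Coq8a for Uroc1 (0.078), Net1 for Gldc (0.069) and Mrgpra1 for Ass1 (0.027). With 2 arrays such likeness carries little, and levels of different probe sets share no common scale.

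**Figure D5:**
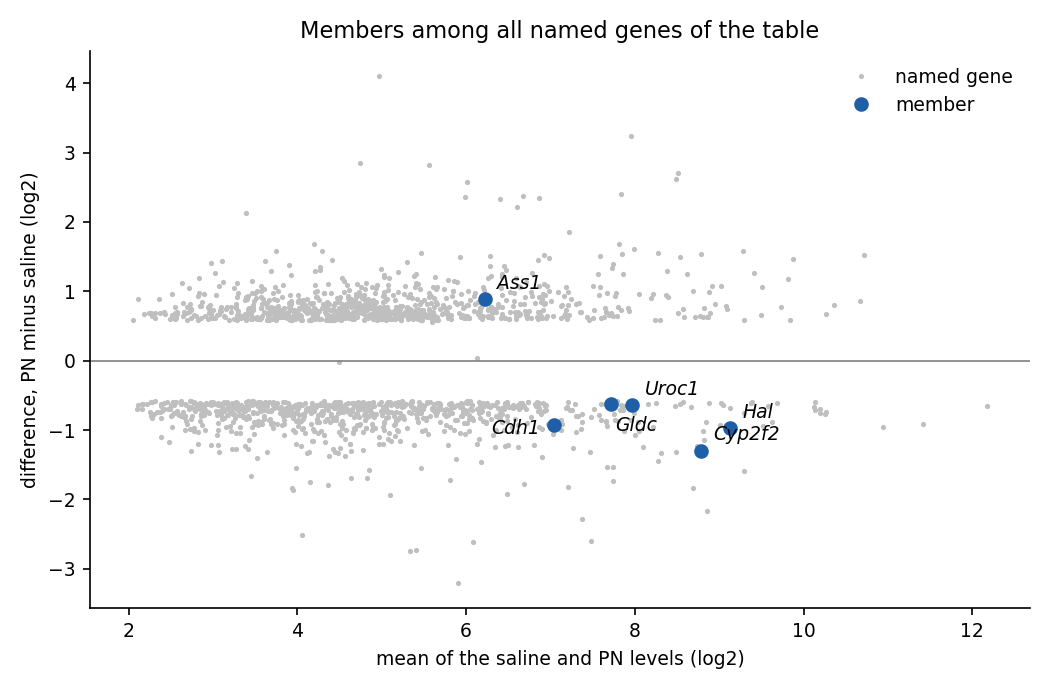
Difference (PN minus saline, log2, vertical axis) against the mean of the 2 levels (log2, horizontal axis) for the 1750 named genes in grey and the 6 members in blue. The empty band around 0 is the 1.5-fold cutoff, crossed only by genes whose rows were averaged over opposite directions, and Cyp2f2 lies lowest of the members at -1.30.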

How the data were processed

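Liver RNA was measured on 2 arrays, 1 of a saline pool and 1 of a PN pool, with groups taken from the mouse group in the labels. The authors deposited log2 values made by RMA in Affymetrix Expression Console 1.4.0.38, per the submitters' processing notes, and kept rows at a 1.5-fold cutoff, per the series' design text. On the table the smallest absolute difference was 0.585. The genome build, and which arrays RMA normalized as 1 set, are not stated in the labels used here.

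Of the 5082 rows, 1779 carried 1 gene symbol, 161 several and 3142 none. Rows with 1 symbol were averaged per gene (python 3.11.15, pandas 2.3.3), and a difference is PN minus saline on the log2 scale, from which folds were computed without a pseudocount. No test was run, since each group has 1 array, and the number of arrays limits the precision. The members and the lists (9 of pathways, 7 of cell types) were chosen with earlier results of these data known. List symbols were matched to RefSeq (GRCm38.p6) by symbol or synonym, 332 of 332 entries. The averaging per gene, not this matching, gave the 1750 named genes behind the shares of named genes and the ranks. The genes described in the text are the members, list genes with a value, Cyp2 genes, and the gene nearest to each member by levels, sought without predicted, RIKEN, small RNA and chemosensory receptor genes. Some list genes without a value, shared rows of amino acid and amylase genes, and some other genes with several rows are also mentioned. Promoters come from RefSeq's table of that build. The code that counts list genes was checked on simulated data, which is no test of the lists. Alternatives were other scalings, a floor for dim levels, single rows, a 2-fold cutoff and rows with several symbols.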

Additional observations from a re-analysis of the deposited data

How the results depend on the processing

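No member changed direction under any scaling run, but among the list genes Foxa2 and Tspan8 changed sign, to 0.0072 and 0.0095, when the median difference of all rows was subtracted, which left 2 lower regulators in place of 3. The median difference lies at an edge of the gap left by the cutoff, at -0.60 over all rows and 0.59 over named genes, so centring on it moves values by the cutoff itself. Subtracting the first gave Cyp2f2 -0.69, Hal -0.37, Cdh1 -0.33, Uroc1 -0.039, Gldc -0.026 and Ass1 1.49. Subtracting the second gave -1.88, -1.56, -1.52, -1.23, -1.21 and 0.30. As scalings chosen after seeing the data, subtracting the difference of the column medians (-0.019) gave -1.28, -0.95, -0.91, -0.62, -0.61 and 0.91, and subtracting the mean difference (-0.052) gave -1.24, -0.92, -0.88, -0.59, -0.58 and 0.94. Both of these shifts are smaller than the cutoff, so they could change no member's direction. The brighter and dimmer row alone gave -1.25 and -1.35 for Cyp2f2 and -1.01 and -0.85 for Cdh1. Raising levels under 3.26 changed no member and could not, since the lowest member level was 5.78 (Ass1, saline).

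A 2-fold cutoff left 1 lower member (of 5) and 0 higher (of 1). It left 2 lower genes (of 6) in the periportal list, 3 (of 3) in the pericentral list and 1 (of 2) in the list of other amino acid breakdown. None remained in the histidine, glycine and serine, urea cycle, epithelial junction and regulator lists. Fewer genes pass this cutoff, and the lists are not set against each other. Counting rows with several symbols kept each count of lower genes within 1.5 times. Leaving out a replicate was not possible with 1 array per group. No paired analysis was possible because each group has 1 array.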
